A study of Mus musculus with 12 samples.

Results

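The genes described here mark cells other than the beta cells that were sorted: endothelial cells, which line blood vessels, and stromal cells, which lay down connective tissue. The set holds 10 genes chosen by name, with earlier results of these data known, of 16593 genes that the array's annotation names. Egfl7, Pecam1, Cdh5 and Kdr are endothelial genes. Acta2, Col1a1, Col1a2, Col3a1, Sparc and Vim are stromal genes. Each gene was read from its brightest probe by the mean over all 12 samples, and the 10 genes had 18 probes in all.

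The study followed the maturation of mouse pancreatic beta cells with single-colour Illumina bead arrays, which report a fluorescence intensity for each probe. Islets came from heterozygous animals carrying a Pdx1-GFP transgene, crossed with the ICR stock, and were dissociated with trypsin. GFP+ cells were then collected by flow sorting, and total RNA was amplified and labelled with biotin. There were 4 samples of late embryos (E18.5), 3 at postnatal day 1 (P1), 2 at postnatal day 10 (P10) and 3 from adults of 5 weeks, and all groups carried the transgene. The labels do not say whether animals were pooled or whether replicates came from separate litters. The p-values therefore measure the spread between these samples, which may be technical in part. In the transgene GFP is driven by the Pdx1 promoter, and Pdx1 is a transcription factor of beta cells and of pancreatic progenitors. A gate on GFP would remove cells that do not make it, among them endothelial and stromal cells.

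Endothelial cells of the islet form a dense fenestrated capillary bed and, with stromal cells, make the vascular basement membrane that beta cells rest on. Fibroblasts secrete the fibrillar collagens of types I and III, while pericytes and smooth muscle cells hold contractile actin. Beta cells themselves make the vascular growth factor Vegfa, which keeps the capillaries in place. In the sorted cells the RNA of such genes can come from carried-over cells, from the beta cells or from other islet endocrine cells. Their sources were not measured here. In bulk samples fewer cells of a type and less RNA per cell cannot be told apart.

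An intensity was called above background on an array when it passed a limit set from that array's own dim probes. The limits lay between 39.0 and 47.1, with the adult arrays at the upper end, and 41.8% to 50.1% of probes passed them. Genes above background on at least 2 arrays were tested. The 14 beta cell marker genes named on the array were above background in every sample. At E18.5 their summed intensity was 22430 to 24730, and that of 10 genes of other islet endocrine cells was 19760 to 34790. In adults the sums were 32910 to 34330 and 8821 to 37850. Of the 10 endothelial and stromal genes, Egfl7 alone was above background on all 12 arrays. Cdh5 and Kdr each passed on 1 array and were not tested, and the other 8 members were, with p-values adjusted over all 9629 genes tested and a threshold of 0.05. Among samples of the same age, E18.5 replicates 2 and 3, P1 replicate 3 and P10 replicate 2 stood apart with more RNA of these genes, and the calls are given with and without them further on.

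Egfl7 encodes a protein that endothelial cells secrete into the matrix around growing vessels. Its probe read 290.3, 478.4, 294.0 and 266.6 in E18.5 replicates 1 to 4, 211.8, 242.8 and 293.0 at P1, 141.7 and 186.4 at P10, and 82.8, 90 and 82.1 in adults. Every adult sample lay below every P10 sample, and every P10 sample below every P1 sample, while the E18.5 and P1 samples overlapped. In E18.5 replicate 1, where Pecam1 was not above background, Egfl7 stood 6.83-fold over the background limit. In adults it was still 1.74-fold to 2.01-fold over the limit.

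Relative to E18.5, Egfl7 was 4.16-fold lower in adults (log2 difference -2.06 ± 0.19 SE, n = 3 and 4, limma adjusted p = 1.1e-06). It was 2.08-fold lower in adults than at P10 (log2 difference -1.06 ± 0.23, n = 3 and 2, limma adjusted p = 0.0066). The second of these calls was lost when P10 replicate 2 was left out (log2 difference -0.82, limma adjusted p = 0.12). From P1 to P10 the log2 difference was -0.65 ± 0.23 (limma adjusted p = 0.080), and it passed the threshold when E18.5 replicate 2 was left out (limma adjusted p = 0.021). From E18.5 to P1 it was -0.35 ± 0.19 (limma adjusted p = 0.33). Successive comparisons share samples, so these differences are not independent of each other. A second Egfl7 probe was dimmer, with 63.4 to 103.2 at E18.5, 59.4 to 82.1 at P1, 58.9 and 55.1 at P10, and 43.7 to 50 in adults. It too was lowest in adults, and its P10 samples lay just under the lowest P1 sample. The third Egfl7 probe was above background on 1 array.

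The genomic starts of Egfl7 are shown because the table holds 3 starts for the gene and the probes on the array name different transcripts. Many endothelial genes are controlled by ETS transcription factors, which bind a core of GGAA. The windows below are from RefSeq on GRCm38.p6, run from 250 bases before to 50 bases after a start on the forward strand, and carry GGAA in capitals where it is on the printed strand and TTCC where it is on the other. They lie at chr2:26580833-26581132 and chr2:26583615-26583914.
Egfl7, upstream start: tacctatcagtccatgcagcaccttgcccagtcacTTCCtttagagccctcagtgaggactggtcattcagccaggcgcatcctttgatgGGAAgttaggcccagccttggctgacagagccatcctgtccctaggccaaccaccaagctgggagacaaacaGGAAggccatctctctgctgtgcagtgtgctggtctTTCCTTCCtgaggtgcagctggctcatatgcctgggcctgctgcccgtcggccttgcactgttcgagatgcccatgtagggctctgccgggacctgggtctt
Egfl7, middle start: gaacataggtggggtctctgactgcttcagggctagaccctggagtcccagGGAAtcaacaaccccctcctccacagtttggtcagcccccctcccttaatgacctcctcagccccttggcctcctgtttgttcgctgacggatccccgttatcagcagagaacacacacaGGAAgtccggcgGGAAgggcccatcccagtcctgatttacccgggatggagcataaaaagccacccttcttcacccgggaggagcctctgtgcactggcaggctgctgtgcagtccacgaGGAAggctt
The upstream window held 5 matches and the middle window 4. At least 4 matches were found in 46.3% of the 32851 windows of this length in the table and at least 5 in 28.6%, so these counts are common. The most downstream Egfl7 window held 1 match and is not shown.

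Pecam1, an adhesion molecule of endothelial junctions, read 40.6, 103.0, 61.6 and 53.8 in the E18.5 replicates, 39.8, 41.7 and 69.2 at P1, 38.7 and 60.7 at P10, and 37.5, 39.7 and 39.1 in adults. This probe was above background in E18.5 replicates 2, 3 and 4, P1 replicate 3 and P10 replicate 2, and in no adult. In adults it was at least 1.5-fold lower than at E18.5 (log2 difference -1.01 ± 0.34, limma adjusted p = 0.028). Here and below, "at least" marks a gene that no adult array measured above background, with the adult mean held at the lowest signal above background. This bound allows for that floor alone, not for the spread between samples or the processing, and other fits gave smaller folds. Folds and log2 differences are of normalized values, after background correction, so they need not equal ratios of the deposited intensities printed beside them. The call was lost without E18.5 replicate 2 (adjusted p = 0.074), E18.5 replicate 3 (0.053) or any of adult replicates 1 (0.071), 2 (0.057) and 3 (0.064) in the limma fit. A second Pecam1 probe read 39.2, 78.2, 50.1 and 41.5 in the E18.5 replicates and 39.3, 48.6 and 57.7 at P1, with the highest value again in E18.5 replicate 2. It was above background in P1 replicate 2 too, so that 6 arrays measured Pecam1 by either probe. From E18.5 to P1 the log2 difference of Pecam1 was -0.43 ± 0.34, from P1 to P10 it was -0.04 ± 0.40, and from P10 to adults -0.53 ± 0.40, and none of the 3 passed.

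Cdh5, the cadherin of endothelial junctions, lay between 32.3 and 41.1 over all 12 samples and passed its limit in E18.5 replicate 2 alone. Kdr, the main VEGF receptor of endothelium, lay between 36.9 and 48.0 and passed its limit in adult replicate 2 alone. Neither gene gave a level that could be compared between ages. A probe at background does not show that its RNA is absent, since probes differ in brightness.

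Acta2, the actin of smooth muscle cells and activated fibroblasts, had the widest range of the 10 members. It read 43.4, 696.9, 258.9 and 68.4 in the E18.5 replicates, 72.0, 127.6 and 295.1 at P1, 60.5 and 165.6 at P10, and 41.8, 48.8 and 40.9 in adults. The E18.5 samples alone spanned most of this range, and adult replicate 2 exceeded E18.5 replicate 1, so the groups overlapped. The brightest probe was above background on 1 of the 3 adult arrays, so the adult level is little more than background. In adults the fitted value was 4.63-fold lower than at E18.5 (log2 difference -2.21 ± 0.83, limma adjusted p = 0.046). Leaving out E18.5 replicate 2 gave -1.40 and a limma adjusted p of 0.12. The call was also lost without E18.5 replicate 3 (limma adjusted p = 0.11), P1 replicate 2 (0.059) or adult replicate 1 (0.099), 2 (0.080) or 3 (0.11). No other pair of ages that was tested passed, with log2 differences of -0.06 ± 0.83 from E18.5 to P1, -0.55 ± 0.99 from P1 to P10 and -1.60 ± 0.99 from P10 to adults. Acta2 had 3 dimmer probes, which read 115.1, 105.6 and 95.2 in E18.5 replicate 2 and 64.9, 58.7 and 54.5 in replicate 3, and put those samples in the same order.

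The promoter of Acta2 is shown because this gene is a textbook target of serum response factor, which binds the CArG box, and because its level set the E18.5 samples apart. The window is from RefSeq on GRCm38.p6, at chr19:34255324-34255623 on the reverse strand, printed 5′ to 3′ with CArG boxes in capitals (allowing 1 G or C among the central A and T bases).
Acta2: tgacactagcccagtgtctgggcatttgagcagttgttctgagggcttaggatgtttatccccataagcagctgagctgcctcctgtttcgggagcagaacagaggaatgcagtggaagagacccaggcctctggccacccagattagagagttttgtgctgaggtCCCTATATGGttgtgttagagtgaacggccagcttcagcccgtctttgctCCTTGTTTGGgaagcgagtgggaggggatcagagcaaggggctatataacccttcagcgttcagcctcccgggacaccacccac
The boxes CCCTATATGG and CCTTGTTTGG began 84 and 34 bases before the start site. Of the 32851 windows, 9.98% held at least 1 such box on either strand and 0.822% at least 2. The matches are a description of sequence, and nothing on binding was measured.

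Sparc, a matrix glycoprotein made by fibroblasts and endothelial cells, read 60.0, 243.6, 162.2 and 87.8 in the E18.5 replicates, 55.1, 72.6 and 186.2 at P1, 45.5 and 104.4 at P10, and 41.5, 44.3 and 43.0 in adults. It was above background in all 9 younger samples and in no adult, and the adult and E18.5 groups did not overlap. The deposited means were 138.4 at E18.5 and 42.9 in adults. On the normalized scale Sparc was at least 3.37-fold lower in adults than at E18.5 (log2 difference -1.94 ± 0.52, limma adjusted p = 0.0086). That call held in each fit that left out 1 sample, with log2 differences from -2.31 to -1.56. The steps between neighbouring ages were -0.47 ± 0.52, -0.49 ± 0.62 and -0.98 ± 0.62 and did not pass. A second Sparc probe, above background on 9 arrays too, read 43.9, 136.4, 94.2 and 55.8 in the E18.5 replicates and 41.2 to 42.7 in adults.

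Vim, an intermediate filament protein of mesenchymal cells, read 37.5, 135.0, 83.9 and 49.8 in the E18.5 replicates, 45.4, 48.8 and 91.4 at P1, 37.5 and 49.2 at P10, and 40.1, 37.6 and 40.7 in adults. The E18.5 and adult groups overlapped, since E18.5 replicate 1 was as low as the adults. In adults Vim was at least 1.67-fold lower than at E18.5 (log2 difference -1.13 ± 0.42, limma adjusted p = 0.047). The limma adjusted p rose to 0.13 without E18.5 replicate 2 (log2 difference -0.72) and to 0.11 without E18.5 replicate 3. It also passed 0.05 without P1 replicate 2 (limma adjusted p = 0.056), P10 replicate 1 (0.053), P10 replicate 2 (0.054) or adult replicate 1 (0.088), 2 (0.11) or 3 (0.090). The steps between neighbouring ages were -0.23 ± 0.42, -0.66 ± 0.50 and -0.24 ± 0.50, and none passed.

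The 3 fibrillar collagen genes differed in how much of a signal they gave. Col3a1, a chain of type III collagen, read 47.7, 99.2, 137.1 and 50.8 in the E18.5 replicates, 38.0, 46.3 and 135.4 at P1, 42.0 and 101.0 at P10, and 42.0, 39.0 and 39.3 in adults. No adult overlapped the E18.5 samples, but the log2 difference of -1.31 ± 0.53 did not pass (at least 1.96-fold, limma adjusted p = 0.066). The steps between neighbouring ages were -0.40 ± 0.53, 0.10 ± 0.64 and -1.02 ± 0.64. Its highest values in E18.5, P1 and P10 samples were of like size, at 137.1, 135.4 and 101.0, and its lowest of each age lay close to the adults. The other Col3a1 probe was above background on no array.

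Col1a1 and Col1a2 encode the chains of type I collagen. Col1a1 reached 53.9 and 55.7 in E18.5 replicates 2 and 3, 53.4 in P1 replicate 3 and 43.6 in P10 replicate 2, and was at background in the other 8 samples. Its log2 difference between adults and E18.5 was -0.40 ± 0.25 (limma adjusted p = 0.23). Col1a2 lay between 34.9 and 45.4 and passed its limit in 2 samples, and its difference of 0.05 ± 0.14 (limma adjusted p = 0.79) lies between values close to background.

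**Figure D1:**
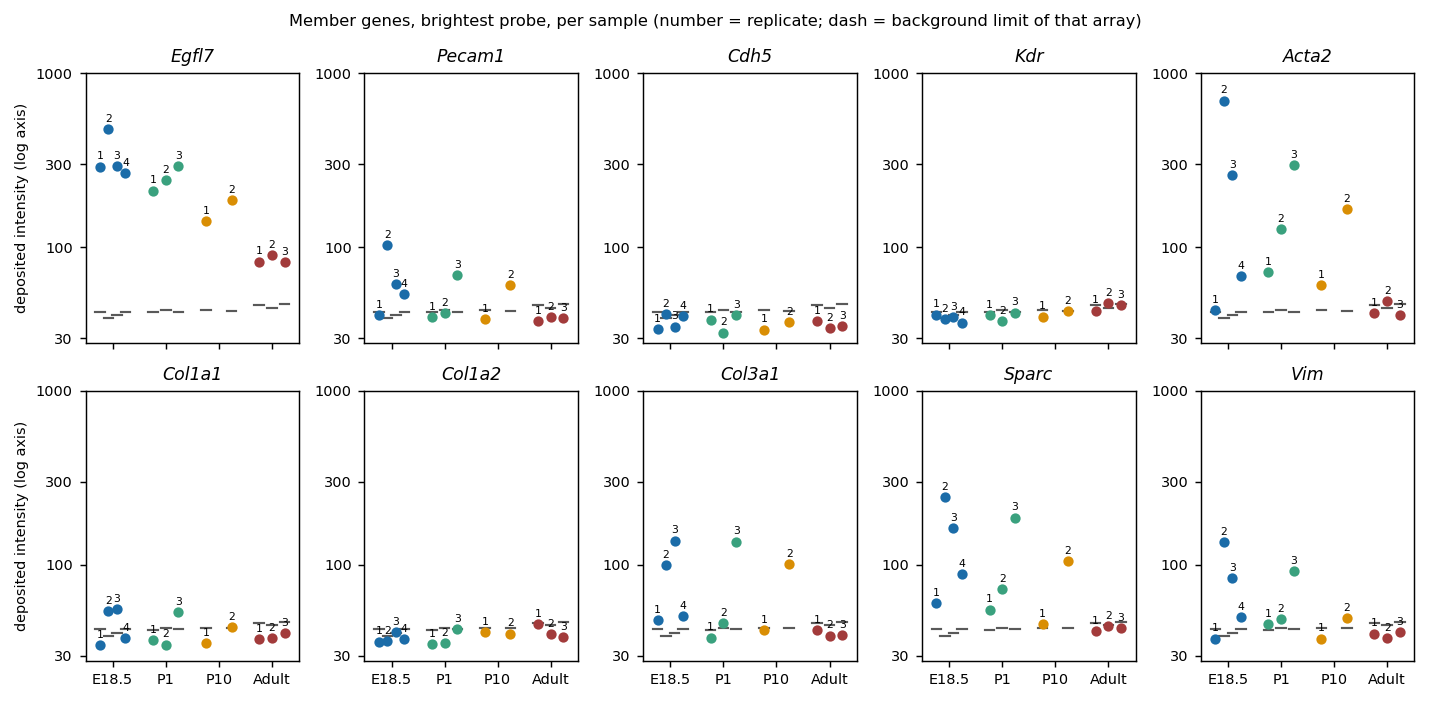
Deposited intensity (log axis) of each of the 10 members, brightest probe, in every sample by age; each point is a sample with its replicate number, and the dash at its position is the background limit of that array. Egfl7 went from between 266.6 and 478.4 at E18.5 to between 82.1 and 90 in adults, and Acta2, Sparc and Col3a1 were high in E18.5 replicates 2 and 3, P1 replicate 3 and P10 replicate 2.

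Counted over the 8 tested members, 5 were lower in adults than at E18.5 (Egfl7, Pecam1, Acta2, Sparc and Vim) and none was higher. In that comparison 39.0% of all 9629 genes tested were called, 21.1% as lower and 17.9% as higher. The median log2 difference of the members was -1.22, beside -0.01 for all genes tested. Pecam1, Sparc, Vim, Col1a1, Col1a2 and Col3a1 entered the test through samples younger than the adults, so a lower adult value was built into their entry, and the gap between 5 of 8 and 21.1% supports nothing further. Every adult sample lay below every E18.5 sample for 22.5% of all genes tested.

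From P10 to adults 1 member fell, Egfl7, against a background of 12.8% of genes called, 6.96% as lower and 5.79% as higher. From P1 to P10 limma called 0 members, with 1 at an unadjusted p under 0.05, and 11.1% of all genes were called, 5.81% as lower and 5.25% as higher. From E18.5 to P1 limma called 0 members and 0 at an unadjusted p under 0.05, beside 5.20% of all genes, 2.74% as lower and 2.46% as higher. The moderated F test over the 4 ages passed for Egfl7 (adjusted p = 6.1e-06) and Sparc (adjusted p = 0.039) among the members, and for 42.0% of all genes tested.

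**Figure D2:**
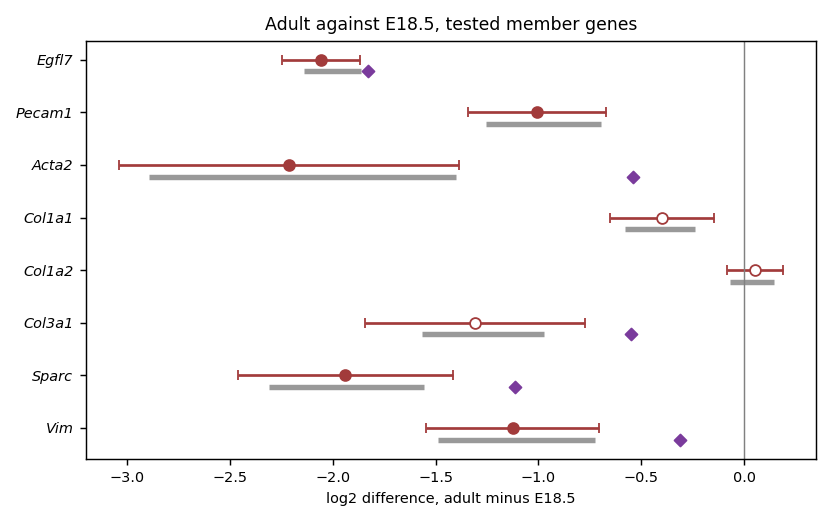
Log2 difference between adults and E18.5 for the 8 tested members; circles are the fit over all samples with SE bars, filled where the threshold was passed, grey bars span the values when 1 sample was left out, and diamonds give the value without E18.5 replicates 2 and 3, P1 replicate 3 and P10 replicate 2 where the gene could still be tested. The Egfl7 difference was -2.06 with all samples and -1.83 without those 4, while Acta2 went from -2.21 to -0.54.

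The tested members tended to be high in the same samples of an age. E18.5 replicates 2 and 3 both exceeded replicates 1 and 4 for 8 of 8 tested members, an order that 18.1% of all genes tested showed. P1 replicate 3 was the highest of its age for 8 of 8 (32.8% of all genes), and P10 replicate 2 exceeded replicate 1 for 7 of 8 (50.8%). Col1a1 and Col1a2 were above background only in samples among E18.5 replicates 2 and 3, P1 replicate 3 and P10 replicate 2. Pecam1 passed mostly through those samples too, so for these genes the order was in part built in by the filter. The untested Cdh5 and Kdr, close to background, did not show the E18.5 order. The number of members above background was 4, 8, 8 and 6 of 10 in the E18.5 replicates, 4, 5 and 8 at P1, 3 and 7 at P10, and 1, 3 and 1 in adults. Over all probes the share above background was 44.2%, 50.1%, 48.5% and 46.2% in the E18.5 replicates and 46.4%, 45.1% and 46.7% at P1. It was 45.9% and 46.5% at P10 and 41.8%, 44.3% and 42.1% in adults. The summed intensity of the 10 members ran from 664.7 to 1926 at E18.5, 613.1 to 1249 at P1, 516.0 to 831.2 at P10 and 445.4 to 459.3 in adults. The adult sums lay close to the summed background limits of 448.7 to 470.7. The 4 libraries E18.5 replicates 2 and 3, P1 replicate 3 and P10 replicate 2 were therefore left out together as a further fit. They were chosen after their values were seen.

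Without the 4 libraries, Egfl7 was still lower in adults than at E18.5 (log2 difference -1.83, limma adjusted p = 5.1e-06), as was Sparc (-1.11, limma adjusted p = 0.0025). Col3a1 had a smaller difference than with all samples, between values near background at both ages, and a lower p (-0.55, limma adjusted p = 0.020). Since the libraries left out were those with the most of this RNA, the spread within ages is smaller by that choice, and these p-values add no support. Acta2 (-0.54, limma adjusted p = 0.20) and Vim (-0.31, limma adjusted p = 0.21) did not. Pecam1, Col1a1 and Col1a2 were no longer above background on enough arrays to be tested. Egfl7 was then lower in adults than at P10 (-0.83, limma adjusted p = 0.025) and lower at P10 than at P1 (-0.76, limma adjusted p = 0.047), with 1 sample left at P10 that is assumed to vary like the other groups.

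Other genes of the same cell types moved with these samples. Of 30 endothelial genes listed with the members included, 18 others were tested. E18.5 replicates 2 and 3 both exceeded replicates 1 and 4 for 16 of these 18, P1 replicate 3 was the highest for 17, and P10 replicate 2 exceeded replicate 1 for 16. For the 18 other stromal genes tested the counts were 14, 15 and 14. For the 14 tested beta cell genes they were 2, 2 and 6. Dim genes could enter the test through the samples where they were high, so part of the endothelial and stromal order may be built in. The 24 tested acinar genes, most of which encode digestive enzymes, gave 0, 22 and 1. At P1 acinar RNA was thus highest in replicate 3, like the endothelial and stromal RNA. At P10 acinar RNA was higher in replicate 1 and the endothelial and stromal RNA in replicate 2. Over the ages the summed intensity of the 26 acinar genes named on the array went from between 1400 and 4237 at E18.5 to between 35920 and 98120 in adults. That of the 16 immune cell genes lay between 680.8 and 989.0 at E18.5 and between 671.1 and 686.0 in adults. The adult immune sums lay under the summed background limits of those genes, which were 717.9 to 753.1. The part of these other cells in the members' differences was not tested.

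**Figure D3:**
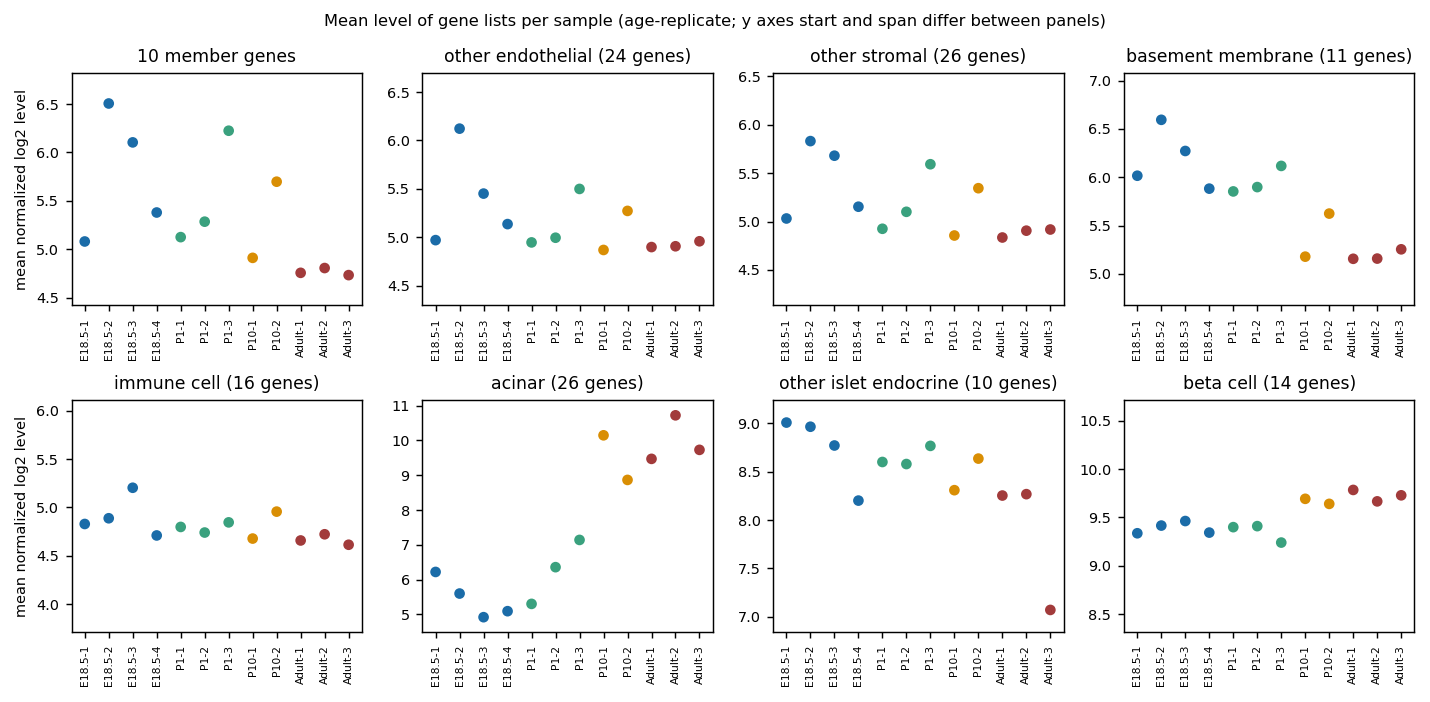
Mean normalized log2 level of the 10 members and of 7 other marker lists (without the members) in each of the 12 samples, labelled by age and replicate; the vertical axes do not start at 0 and differ between panels. The members' mean was 6.51 and 6.10 in E18.5 replicates 2 and 3, 6.23 in P1 replicate 3 and 5.70 in P10 replicate 2, against 4.73 to 4.81 in adults, and the acinar list was higher at P10 and in adults than at the younger ages.

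E18.5 replicates 2 and 3 differed in which of these RNAs they held more of. Acta2 read 696.9 in replicate 2 and 258.9 in replicate 3, and Plvap, a protein of endothelial fenestrae, read 264.0 and 113.4. Col3a1 went the other way with 99.2 and 137.1, as did Dcn, a fibroblast proteoglycan, with 205.4 and 246.0. Lyz1, a lysozyme gene on the immune cell list, read 83.8 in replicate 2 and 200.1 in replicate 3, and the haemoglobin gene Hba-a1 read 87.2 and 551.1. Of the other endothelial genes tested, 17 of 18 were higher in replicate 2, of the other stromal genes 10 of 18 were, and of the immune cell genes 1 of 9 was. The difference was not limited to these lists, since 23 of 24 acinar and 10 of 10 basement membrane genes were higher in replicate 2. Of the beta cell genes 7 of 14 were. The stromal list thus went both ways, with Bgn, another proteoglycan, at 273.2 in replicate 2 and 146.4 in replicate 3. Each value is from 1 sample, so no test applies, and 48.2% of all genes tested were higher in replicate 2.

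**Figure D4:**
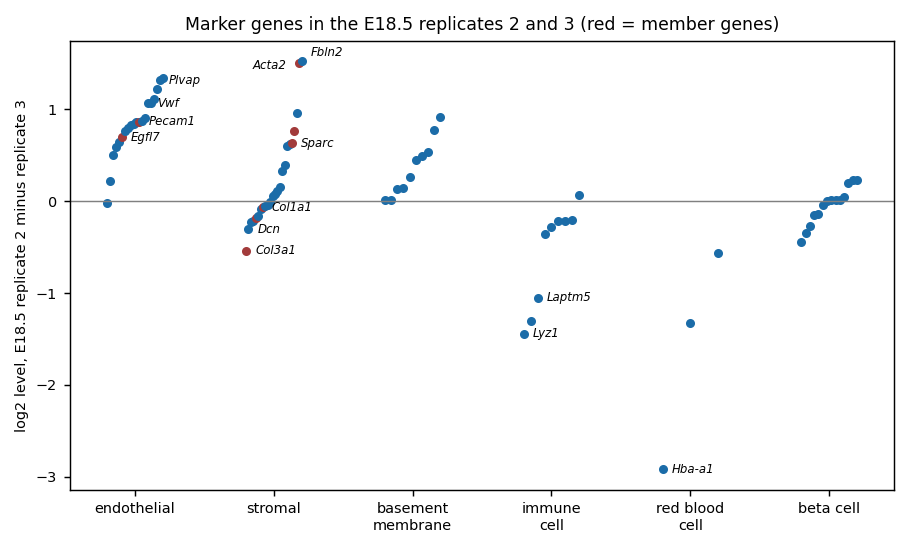
Log2 level in E18.5 replicate 2 minus that in replicate 3, a point per gene in each of 6 marker lists, sorted by value, with members in red and the line at no difference. Acta2 (1.5) and Plvap (1.32) lie above the line, and Col3a1 (-0.54), Lyz1 (-1.44) and Hba-a1 (-2.92) below it.

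Between adults and E18.5, 8 of the 18 other endothelial genes fell and 10 did not pass, with a median log2 difference of -0.69, beside 21.1% of all genes tested called lower. No adult array measured 11 of these 18 above background, among them 6 of the 8 that fell, so they entered the test through younger samples and a lower adult value was built in. Robo4, a guidance receptor of endothelium, read 56.1, 137.0, 69.3 and 57.2 at E18.5 and 39.8 to 41.7 in adults, where no array measured it above background (at least 1.93-fold lower, fitted log2 difference -1.25 ± 0.28, limma adjusted p = 0.0027). Icam2, an adhesion molecule, was at least 1.45-fold lower in adults (fitted log2 difference -1.06 ± 0.31, limma adjusted p = 0.014), and so was Flt1, a VEGF receptor (-0.87 ± 0.26, limma adjusted p = 0.016). Ramp2, a receptor partner and the brightest of the list, read 225.8 to 513.0 at E18.5 and 207.8 to 308.3 in adults, and did not pass (-0.23 ± 0.24, limma adjusted p = 0.47). Esam, Cd93 and Plvap were also above background on all 3 adult arrays. Mean log2 levels in adults and at E18.5 were 7.33 and 7.15 for Esam and 6.29 and 6.23 for Cd93. For Plvap they were 5.34 and 6.57. Without the 4 libraries 1 of 11 tested endothelial genes was called lower. Leaving out 1 sample at a time gave 3 to 12 of them.

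Of the 18 other stromal genes tested, 6 fell between E18.5 and adults, 1 rose and 11 did not pass, with a median of -0.58. The shares over all genes tested were 21.1% lower and 17.9% higher. No adult array measured 10 of the 18 above background, among them 3 of the 6 that fell. Fbln1, a matrix glycoprotein, read 76.3, 104.1, 104.7 and 90.1 at E18.5 and 38.9, 42.8 and 45.3 in adults, all not above background (at least 2.55-fold lower, fitted log2 difference -1.57 ± 0.16, limma adjusted p = 2.7e-06). Its E18.5 replicates were closer to each other than those of Acta2. Igfbp7, a secreted binding protein and by far the brightest of the list, rose from between 2665.1 and 3228.9 at P1 to 4589.3 and 4286.2 at P10 (limma adjusted p = 0.030) and fell to between 1892.4 and 2363.2 in adults (limma adjusted p = 0.00016). S100a4 was the 1 gene that rose (0.37 ± 0.14, limma adjusted p = 0.049). Without the 4 libraries 6 of 13 stromal genes tested were lower, and leaving out 1 sample at a time gave 3 to 9.

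Genes of the basement membrane, which vessels and beta cells share, were lower in adults than at E18.5 for 8 of 10 tested. The other 2 did not pass, the median was -1.15, and 21.1% of all genes tested were called lower. No adult array measured 6 of the 10 above background, among them 4 of the 8. Lamc1, a laminin chain, read 148.4, 168.4, 141.6 and 135.4 at E18.5, 141.9, 133.9 and 161.6 at P1, 75.8 and 76.7 at P10, and 62.0, 57.9 and 57.5 in adults. Its values at E18.5 and P1 lay all above those at P10, and those at P10 above the adults. The step from P1 to P10 was -1.08 ± 0.13 (limma adjusted p = 1e-04). Col18a1 fell over the same interval by 1.57 ± 0.36 on the log2 scale (limma adjusted p = 0.011). In that step 4 of the 10 genes fell, beside 5.81% of all genes tested called lower. Lamb1, another laminin chain, read 57.8 to 70.7 at E18.5, 54.8 to 60.2 at P1, 42.1 and 44.8 at P10, and 36.5 to 46.0 in adults, all not above background (at least 1.64-fold lower than at E18.5, fitted log2 difference -1.08 ± 0.13, limma adjusted p = 2e-05). Col4a1, a chain of type IV collagen, read 250.9, 406.4, 298.4 and 213.3 at E18.5 and 111.3 to 125.2 in adults (-1.32 ± 0.17, limma adjusted p = 3.2e-05). Agrn, the brightest gene of the list, was lowest at P10, with 123.8 and 122.5 there against 145.0 to 221.5 in adults. E18.5 replicates 2 and 3 both exceeded replicates 1 and 4 for 6 of the 10 genes. Without the 4 libraries 6 of 8 tested genes were lower in adults than at E18.5.

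The profiles nearest to Egfl7 over the 12 samples, by Euclidean distance between log2 values centred on each gene's mean, were those of St6galnac2 (0.682), a sialyltransferase, Wfdc2 (0.788), a secreted protein of epithelia, and Csrp2 (0.866), a LIM-domain protein. Csrp2 read 203.7 to 296.3 at E18.5, 176.1 to 199.4 at P1, 86.0 and 107.7 at P10, and 50.6 to 61.5 in adults. For Sparc the nearest were Fstl1 (1.18), Fbln2 (1.2) and Col6a1 (1.21), which all encode secreted matrix proteins. Fbln2 read 465.5 and 170.2 in E18.5 replicates 2 and 3, and 59.3 and 87.8 in replicates 1 and 4, the same split as Sparc. None of the 3 genes nearest to Egfl7 is on the endothelial list, while all 3 nearest to Sparc are on the stromal list.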

How the data were processed

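Total RNA from 12 sorted samples was hybridised to Illumina arrays. The authors' deposited series values are fluorescence intensities on a linear scale. No detection p-value could be matched to a sample, and the authors' scaling of these values is not given in the sources used here. A further table with 24 value columns was not used, since its column names match no sample's labels.

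Of 25697 probes, 23978 carry 1 gene symbol in the array's annotation and 1719 are unnamed here. The background limit of an array was the mode of its signals plus the spread below it, for an upper tail of 0.01, and depth has no counterpart on arrays, where their number limits the precision. Values were corrected with normexp (offset 16), quantile normalized and taken as log2 from the deposited intensities. A probe above background on at least 2 arrays was kept, which left 13889 probes and the brightest probe of 9629 genes. limma 3.58.1 in R 4.3.3 fitted age over all 12 samples, and p-values were adjusted by Benjamini-Hochberg over all 9629 genes at 0.05. For "at least" folds, the floor of an array was its lowest signal among probes above background. On simulated data of 9629 genes with 200 changed, the fit of adults against E18.5 recovered 96% of changes of 1 log2 unit and 99% of changes of 2. The changed genes were picked at random, with normal noise and no background floor. These rates therefore do not hold for members with a wide spread or near background.

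Genes that could be named were the 10 members and the 3 nearest profiles of members past the F test. From each of 12 marker lists they were the 4 with the smallest F test p past the threshold and the brightest gene. Of these, the text gives no single values for acinar, duct, Schwann and nerve, other islet endocrine or beta cell genes. The same holds for Pcolce, Coro1a and Laptm5. Plvap, Dcn, Bgn, Icam2, Esam, Cd93 and S100a4 fall outside this rule and were chosen after their values were seen. The members and lists were chosen with earlier results of these data known. Promoter sequences are from RefSeq on GRCm38.p6, with 9 windows for 7 of the members. The plots come from matplotlib 3.10.9 under Python 3.11.15. Alternatives covered the background correction, normalization, probe filter, probe choice, variance model, array weights, samples fitted, a replicate block and leaving out samples.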

Additional observations from a re-analysis of the deposited data

How the results depend on the processing

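Egfl7 was lower in adults than at E18.5 past the threshold in 25 of 25 settings, with log2 differences from -2.49 to -1.50, and Sparc in 24 of 25, the exception being the trended robust variance (limma adjusted p = 0.053). The calls for Acta2, Vim and Pecam1 passed in 11 of 25, 9 of 25 and 14 of 24 settings. The 5 members lower in adults than at E18.5 became 3 with log2 and quantile normalization alone, 2 with an offset of 50, 2 with the array mode subtracted, 2 with no further scaling, 2 with probes averaged per gene, 1 with the trended robust variance, 3 of 5 tested without the 4 libraries that stood apart, and 2 to 6 when 1 sample was left out. Between adults and P10 the count of 1 became 2 when only those ages were fitted and 0 to 1 when 1 sample was left out. Between P10 and P1 the count of 0 became 1 when only those ages were fitted, 1 without the 4 libraries and 0 to 1 when 1 sample was left out. Between P1 and E18.5 it was 0 in every setting. Over any age the count of 2 became 1 with log2 and quantile normalization alone, an offset of 50, the mode subtracted, no further scaling, the mean of probes or the trended robust variance, and 1 to 5 when 1 sample was left out. For 15 pairs of same-numbered samples of different ages, correlations of deviations ran from -0.07 to 0.27, with 5 over 0.1. For 38 pairs with different numbers they ran from -0.272 to 0.265, with 6 over 0.1. These values do not settle whether same-numbered samples share variation. The labels do not say that a number marks a shared litter or day, so the numbers were not taken to pair samples. With the replicate block the counts were 6 (adults against E18.5), 1 (P10 against P1, Egfl7 at an adjusted p of 0.050) and 4 (any age). Uncalled differences whose sign turned were, between adults and E18.5, Col1a2 (-0.0159 with array weights, -0.0675 to 0.144 with 1 sample left out). Between adults and P10 they were Col1a2 (0.0162 with no further scaling, -0.149 to 0.0634 with 1 sample left out), Vim (0.0580 without the 4 libraries, -0.547 to 0.0583) and Col1a1 (-0.36 to 0.14). Between P1 and E18.5 they were Acta2 (0.28 with the mode subtracted, 0.99 without the 4 libraries, -0.75 to 0.74), Vim (0.16 without the 4 libraries, -0.63 to 0.17), Col1a1 (-0.449 to 0.000302), Col1a2 (-0.116 to 0.00644) and Col3a1 (-1.11 to 0.0672). Between P10 and P1 they were Col1a1 (0.0471 with the replicate block, -0.37 to 0.16), Col3a1 (-0.0214 without the 4 libraries, -0.74 to 0.95), Pecam1 (0.0909 with the mode subtracted, 0.00865 with array weights, 0.0747 with the replicate block, -0.51 to 0.43), Acta2 (-1.42 to 0.31) and Sparc (-1.27 to 0.29). Counts of other list genes called lower in adults than at E18.5 were taken over all genes of the list tested in each setting. For the endothelial list the count of 8 became 5 with log2 and quantile normalization alone and 3 with an offset of 50. It was 3 with the trended robust variance, 2 with no further scaling and 1 with the mode subtracted. For the stromal list the count of 6 became 3 with an offset of 50 and 2 with the mode subtracted. It was 2 with the trended robust variance and 11 with the replicate block. Over all genes the 501 calls between P1 and E18.5 became 962 with array weights, 217 with the replicate block and 116 to 592 with 1 sample left out. Other counts over all genes ran from 386 to 1175 (P10 against P1, 1065 with all samples), 508 to 1282 (adults against P10, 1228) and 3140 to 3724 (adults against E18.5, 3759). Without the 4 libraries the first 3 were 25, 313 and 331. What caused these shifts was not tested. Brightness over background limits Cdh5, Kdr, Col1a1 and Col1a2 in all ages and most members in adults.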

Other observations

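Genes that process collagen went both ways. Of 15 tested, 6 fell between E18.5 and adults, 3 rose and 6 did not pass, with a median log2 difference of -0.26. Beside this, 21.1% of all genes tested were called lower and 17.9% higher. Serpinh1, the collagen chaperone, read 82.6 to 108.2 at E18.5 and 35.9 to 47.8 in adults, above background on 1 of 3 adult arrays (fitted log2 difference -1.56 ± 0.18, limma adjusted p = 8e-06). Bmp1, the protease that cuts procollagen, was bright at 1209.2 to 1437.5 at E18.5, reached 1434.4 to 2156.5 at P1 and fell to between 466.7 and 624.7 in adults (-1.19 ± 0.13, limma adjusted p = 6.5e-06). P4ha1, a subunit of prolyl hydroxylase, rose from between 51.9 and 67.4 at E18.5 to between 80.9 and 90.9 in adults (0.79 ± 0.13, limma adjusted p = 0.00021). P4hb, which pairs with it, did not pass (0.16 ± 0.17, limma adjusted p = 0.50).

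Among 9 tested genes of VEGF and angiopoietin signalling, 3 fell between E18.5 and adults, 6 did not pass and the median was -0.19. The share called lower over all genes tested was 21.1%. Angpt2, a ligand of the endothelial receptor Tek, rose from between 109.9 and 133.1 at E18.5 to between 171.0 and 243.5 at P1 (log2 difference 0.82 ± 0.14, limma adjusted p = 0.0063), a step in which no member passed. It then fell to 122.9 and 130.5 at P10 (-0.66 ± 0.16, limma adjusted p = 0.016) and to between 74.2 and 80.8 in adults (-0.83 ± 0.16, limma adjusted p = 0.0036). Nrp1, a co-receptor for VEGF, was at least 1.39-fold lower in adults than at E18.5 (fitted log2 difference -0.83 ± 0.18, limma adjusted p = 0.0024). Vegfa stayed bright, with 1357.8 to 1770.7 at E18.5 and 1347.1 to 1419.0 in adults (-0.07 ± 0.11, limma adjusted p = 0.64).

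Over the same comparison of adults with E18.5, 3 of 9 immune cell genes fell (median -0.37), 1 of 3 red blood cell genes (median -0.65), 1 of 2 Schwann and nerve genes (median -0.44), 5 of 8 duct genes (median -0.50) and 3 of 8 genes of other islet endocrine cells (median -0.75), where 1 rose. Of 14 beta cell genes 2 fell and 3 rose (median 0.08). All 24 acinar genes tested rose (median 5.18). These list counts stand beside 21.1% of all genes tested called lower and 17.9% called higher.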
